A study of Homo sapiens with 2 samples.

Results

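The apolipoprotein genes APOB, APOA1, APOC3, APOA4, APOA5, APOE, APOC1 and APOC2 and the gene MTTP were examined in a list of LSD2 binding intervals from HepG2 cells, a line derived from a human liver tumour. An interval is a stretch of the hg19 genome in which the authors called more LSD2 ChIP-seq signal than input. The 9 genes fall into 4 loci, and an interval was a member where its midpoint lay inside 1 of them. The loci were APOB (chr2:21224301-21266945), MTTP (chr4:100485240-100545154), the APOA5-APOA4-APOC3-APOA1 cluster (chr11:116660086-116708338) and the APOE-APOC1-APOC2 cluster (chr19:45409039-45452818). Identical lines were counted as 1 interval, which gave 54 members among 370863 intervals.

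The study asked where LSD2, the flavin-dependent histone H3 demethylase encoded by KDM1B, meets DNA in HepG2 cells in their usual medium with 25 mM glucose and 10% serum. It comprised 1 ChIP library, made with a rabbit polyclonal antibody to recombinant human LSD2, and 1 input library from the same line. No replicate error exists for any value below, so no difference was tested. Each 95% confidence interval (CI) on a density (exact Poisson) or on a ratio of densities (exact conditional binomial) covers counting only. Those on a median width (order statistics) or on a share of intervals (Wilson) cover only the spread among intervals of this 1 list. All of them treat neighbouring intervals as independent. Where intervals lie in close groups, as in APOB, they are not independent and the CIs are too narrow. A CI that leaves out 1 is therefore no test. The sequencing depth of both libraries is unknown here, and the list gives positions without a height, fold or p.

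Hepatocytes export triglyceride as very-low-density lipoprotein. APOB is the large structural protein of that particle and stays with it until the particle is taken up, and MTTP encodes the microsomal transfer protein that loads lipid onto APOB as it is made. The other 7 members encode small exchangeable apolipoproteins that ride on lipoproteins and steer their metabolism: APOA1 is the main protein of high-density lipoprotein, APOC3 inhibits lipoprotein lipase and APOC2 activates it. APOA5 promotes the clearance of triglyceride, APOA4 is made mainly in the intestine, APOE is a ligand of lipoprotein receptors and APOC1 hinders that uptake. APOB and MTTP each stand alone, whereas the exchangeable apolipoproteins lie in compact clusters. In the RefSeq gene order (GRCh38.p14, used for neighbours only), LDAH and TDRD15 flank APOB, TRMT10A and C4orf54 flank MTTP, ZPR1 and SIK3 flank the APOA cluster, and TOMM40 and CLPTM1 flank the APOE cluster, which also holds APOC4.

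The promoter sequences of MTTP and APOE are shown because the upstream start of each lies at the end of its locus, where, as described further on, no LSD2 interval lay within 1 kb. The downstream start of MTTP lies inside the gene and was not placed on hg19 directly. If both MTTP starts are as far apart on hg19, it falls in the group of 5 intervals at chr4:100492618-100497272. It would then lie within 1 kb of chr4:100496469-100496860 (392 bp). RefSeq (GRCh38.p14) gave entries for 6 of the 9 genes: MTTP, APOA4, APOA5, APOE, APOC1 and APOC2. The 250 bases before the start are given 5′ to 3′ on the strand of the gene, for both listed starts of MTTP and for the most upstream start of APOE. Capitals mark matches on either strand to TATAA (the core of a TATA box), GGGCGG (a GC box) or CACGTG (an E-box), which do not overlap one another here. These sequences are on another build than the intervals and, apart from that estimate for the downstream MTTP start, were not placed on them.
MTTP, upstream start, chr4:99563880-99564129 (+): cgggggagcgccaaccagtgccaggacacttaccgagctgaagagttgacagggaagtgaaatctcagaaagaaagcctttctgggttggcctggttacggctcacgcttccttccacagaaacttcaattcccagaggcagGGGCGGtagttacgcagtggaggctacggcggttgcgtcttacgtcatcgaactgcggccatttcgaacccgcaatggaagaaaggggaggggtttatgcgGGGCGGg
MTTP, downstream start, chr4:99574574-99574823 (+): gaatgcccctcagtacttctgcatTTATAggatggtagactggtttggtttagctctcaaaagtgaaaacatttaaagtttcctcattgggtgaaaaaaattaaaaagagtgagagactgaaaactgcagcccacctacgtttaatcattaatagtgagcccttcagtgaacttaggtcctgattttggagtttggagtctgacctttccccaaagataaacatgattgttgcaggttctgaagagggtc
APOE, chr19:44905546-44905795 (+): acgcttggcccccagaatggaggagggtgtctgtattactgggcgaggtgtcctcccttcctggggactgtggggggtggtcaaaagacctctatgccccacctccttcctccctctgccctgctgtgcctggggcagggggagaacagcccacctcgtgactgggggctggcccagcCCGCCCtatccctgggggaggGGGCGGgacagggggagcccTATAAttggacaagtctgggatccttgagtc
The upstream MTTP promoter had 17 CpG dinucleotides and 2 GC boxes, whereas the downstream one had 1 CpG and 1 TATAA match. The promoter of the most upstream APOE start had 5 CpG, 2 GC boxes and 1 TATAA match. The APOE entries further downstream had 9 and 11 CpG and no match to any of these motifs. Among all 35116 promoter entries the median was 11 CpG, and 18.9% held TATAA, 42.6% GGGCGG and 6.34% CACGTG. The single CACGTG match among the 10 member entries was in APOA5. A match describes letters and is not a measured site.

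APOB held the most intervals of the 4 loci, and its intervals were wide. The gene contained 23 intervals in 42.6 kb, or 5.39 per 10 kb (95% CI 3.42 to 8.09). They covered 34.8% of the gene, against 5.68% of the 200 kb flanks on both sides and 3.22% of the effective genome size that the authors used. Of all 67083 consecutive windows of that length over the list, 0.195% held as many intervals and 0.00894%, or 6 windows, had as large a covered share. On chromosome 2 alone these shares were 0.464% and 0.0357% of 5603 windows. The typical window of that length held 5 intervals over all chromosomes and 7 on chromosome 2.

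**Figure D1:**
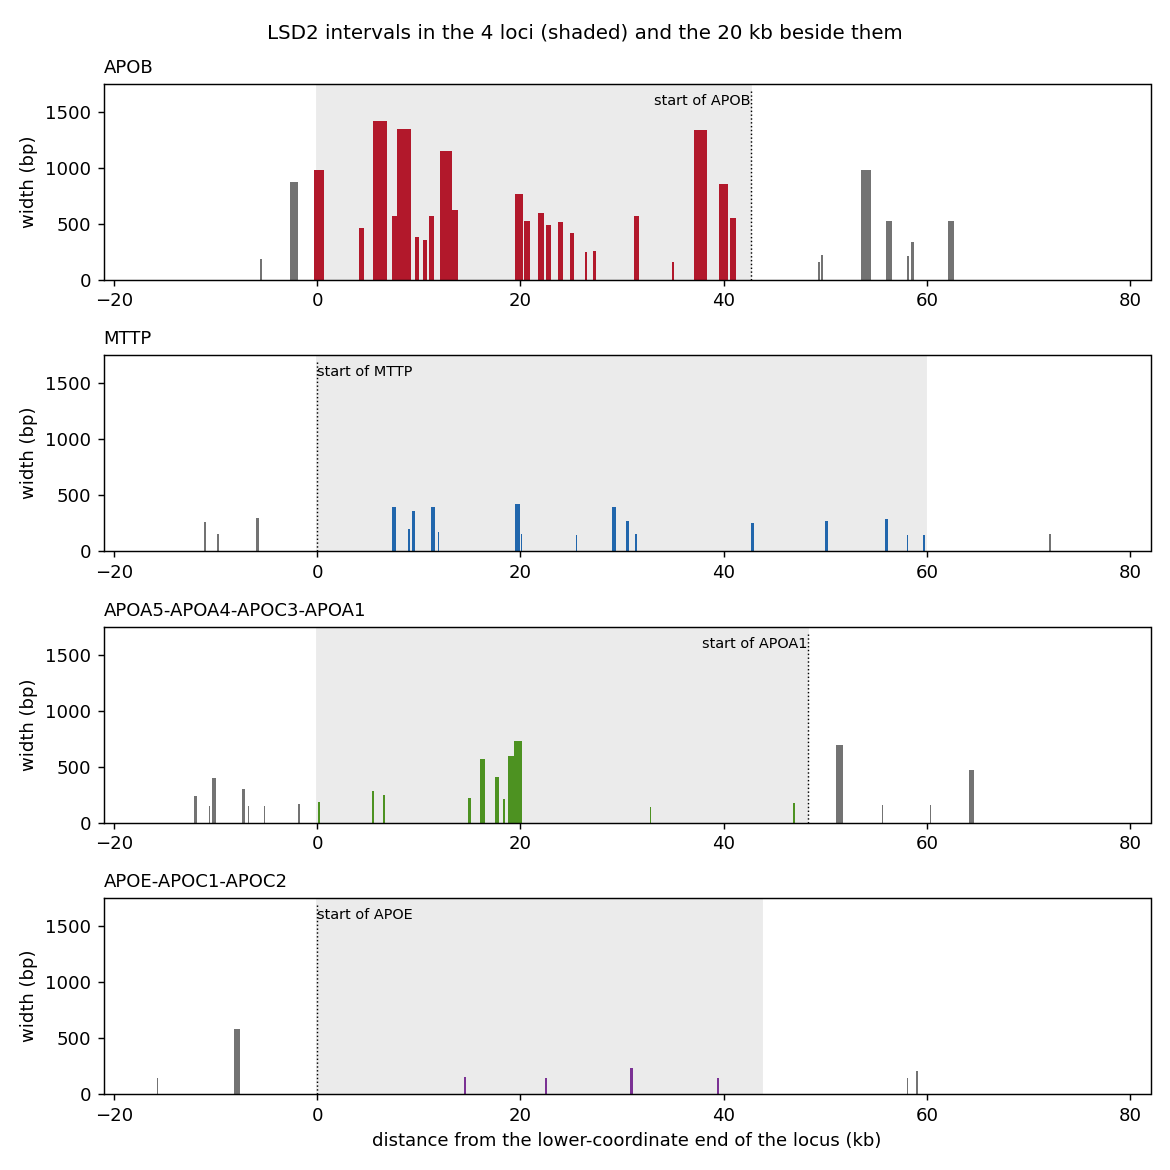
Intervals in the 4 loci (shaded) and in the 20 kb on each side, drawn to scale against the distance in kb from the lower-coordinate end of each locus, with the width of each interval in bp as its height. Members are coloured, intervals outside are grey, and a dotted line marks the gene start at the end of the locus. APOB holds 23 intervals up to 1420 bp wide along its length, which cover 34.8% of it, while the APOE cluster holds 4 of at most 238 bp.

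Density in APOB was 2.70 times that of its flanks (95% CI 1.62 to 4.33). The flank on the lower-coordinate side, beyond the 3′ end of APOB, had 30 intervals, and the ratio to it was 3.60 (1.99 to 6.40). The flank before the gene start had 50, with a ratio of 2.16 (1.26 to 3.60). The CI of each of these 3 ratios lies above 1. The 5 Mb around the gene, without it, had 1.71 intervals per 10 kb and chromosome 2 had 1.77, so the ratio of APOB to its wider surroundings was 3.15 (1.99 to 4.76). DNA copy number, with which the number and width of called intervals can move, was not measured, and its part in these values was not tested.

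**Figure D2:**
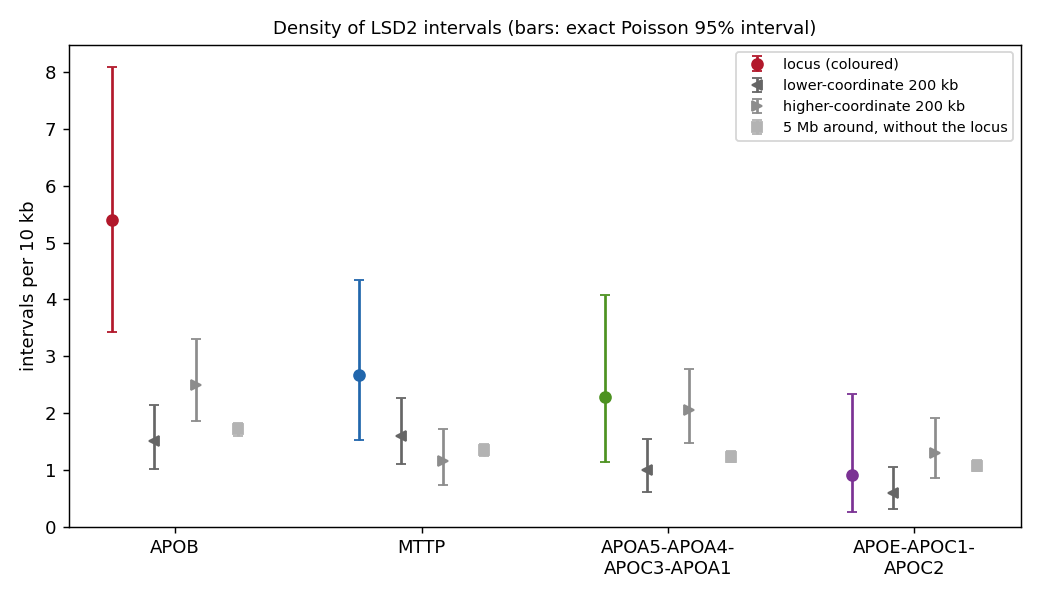
Intervals per 10 kb in each locus (coloured circles), in the 200 kb on its lower-coordinate and higher-coordinate side (triangles) and in the 5 Mb around it without the locus (squares), with exact Poisson 95% CIs. APOB, at 5.39, lies above its surroundings, at 1.5, 2.5 and 1.71, and the CI of the APOE cluster, at 0.914, spans all 3 of its own.

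Intervals in APOB were also wider than those in its flanks. The median interval in APOB was 564 bp wide (95% order-statistic CI 460 to 765 bp, range 154 to 1420 bp), against 174.5 bp in its flanks (162 to 267 bp) and 173 bp over the whole list. At least 200 bp was reached by 22 of the 23, or 95.7%, against 47.5% of those in the flanks and 42.2% of all intervals. Of the 23 intervals, 18 (78.3%, Wilson 95% CI 58.1% to 90.3%) were at least 400 bp wide, compared with 13 of 80 (16.3%, 9.75% to 25.8%) in the flanks and 7.89% of all intervals. Widths of at least 1000 bp were reached by 4 of the 23, by none of the 80 in the flanks and by 0.100% of all intervals. Counting only intervals of at least 400 bp, the density ratio of APOB to its flanks was 13.0 (6.02 to 28.8).

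The 4 widest APOB intervals were chr2:21229800-21231219 (1420 bp), chr2:21232196-21233544 (1349 bp), chr2:21261376-21262708 (1333 bp) and chr2:21236414-21237559 (1146 bp). The first, second and last of these had midpoints 36.4, 34.1 and 30.0 kb from the gene start, toward the 3′ end, whereas that of the interval of 1333 bp was 4.90 kb from the start. Next in width was chr2:21224010-21224991 (982 bp), which straddled the 3′ end of the gene, and then chr2:21263892-21264744 (853 bp). The narrowest was chr2:21259264-21259417 (154 bp), which lay between wide ones. Just outside the 3′ end, chr2:21221591-21222460 was 870 bp wide, and it was 1 of only 2 intervals in the 20 kb beyond that end.

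Most APOB intervals lay close together in 3 stretches in which each was within 2 kb of the next. Outside these stretches lay chr2:21224010-21224991 (982 bp) and chr2:21255441-21256007 (567 bp). Of the 22 gaps between all APOB intervals 18, or 81.8%, were up to 2 kb, against 30.3% of gaps over the whole list. The median gap was 598 bp against 4218 bp. One stretch of 9 intervals ran over 9.80 kb (chr2:21228407-21238202) and was 70.1% covered. Another of 8 intervals ran over 7.95 kb (chr2:21243754-21251706) and was 47.9% covered. The stretch nearest the gene start had 4 intervals over 6.21 kb (chr2:21259264-21265476) and was 46.5% covered. The largest gap inside the gene, 5551 bp, parted the first stretch from the second.

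APOB is read from the minus strand (background knowledge, as for APOA1), so its start is the higher-coordinate end. Over 4 equal segments from start to 3′ end, the covered share was 27.1%, 28.9%, 35.2% and 47.8%. The number of intervals was 4, 7, 5 and 7, so the covered share was highest at the 3′ end while the count showed no such order. Each segment was covered more than any of the 20 bins of 20 kb in the flanks, which are longer than the segments and ran from 0% to 14.7% with a median of 5.79%. The bin of 14.7% was the one just before the gene start. It held 7 intervals, among them chr2:21277795-21278774 of 980 bp, 10.85 kb before the start.

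**Figure D3:**
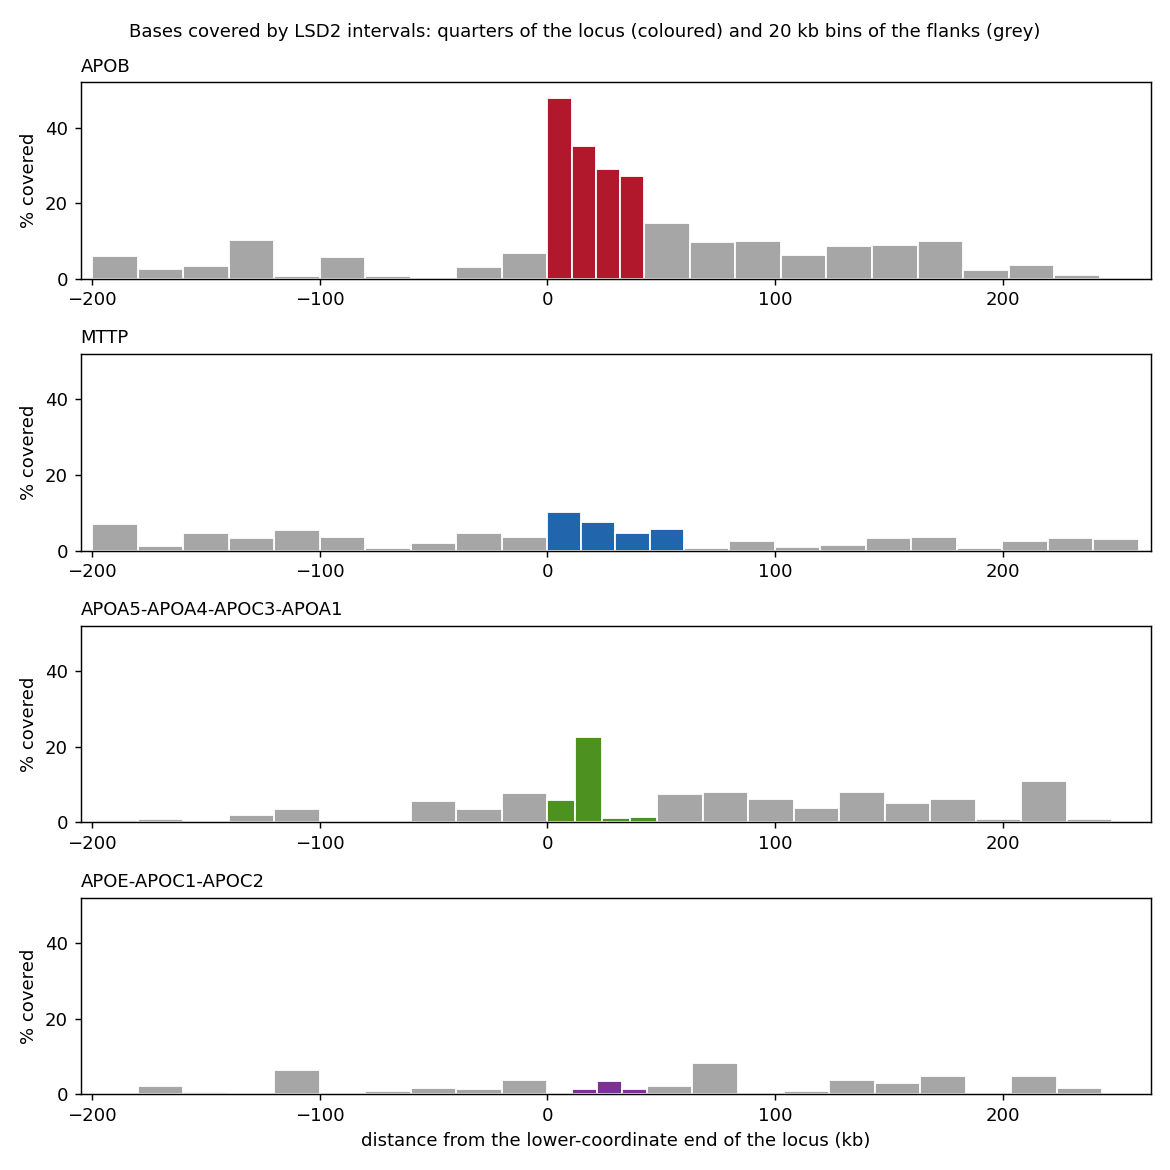
Percent of bases covered by intervals in 4 equal segments of each locus (coloured) and in 20 kb bins out to 200 kb on both sides (grey), against the distance in kb from the lower-coordinate end. The segments of APOB reach 27.1% to 47.8%, 1 segment of the APOA cluster reaches 22.6%, and the bins of the flanks stay at or below 14.7%.

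MTTP held 16 intervals in 59.9 kb, spread along the gene and narrower than those of APOB. The density was 2.67 per 10 kb (95% CI 1.53 to 4.34), and 6.94% of the gene was covered. At least as many intervals were found in 6.59% of 47739 windows of that length over all chromosomes and in 4.34% of 3135 windows on chromosome 4. The covered share was reached by 5.54% and 3.35% of them. Density was 1.94 times that of both flanks (1.04 to 3.44), but the CI included 1 against the lower-coordinate flank alone, before the gene start (1.67, 0.855 to 3.13), and against flanks of 500 kb (1.73, 0.967 to 2.91).

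The median width in MTTP was 262 bp (153 to 392 bp), against 178 bp (157 to 200 bp) in its flanks, and these ranges overlap. Only 1 of the 16 intervals reached 400 bp, the widest at chr4:100504751-100505172 (422 bp), and 1 of 55 in the flanks did. The narrowest were chr4:100510691-100510836 and chr4:100543263-100543408, both of 146 bp. Covered share over 4 equal segments from the upstream start was 10.1%, 7.46%, 4.53% and 5.67%. A group of 5 intervals, each within 2 kb of the next (chr4:100492618-100497272, 4.66 kb), made up the first of these segments, and a gap of 11252 bp lay in the latter part of the gene. The interval nearest the 3′ end, chr4:100544864-100545010, ended inside the gene, and the next one outside began 12.1 kb beyond the end.

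The APOA5-APOA4-APOC3-APOA1 cluster held 11 intervals in 48.3 kb, and 9 of them lay in the lower-coordinate part of the cluster, on the side of APOA5. Density was 2.28 per 10 kb (1.14 to 4.08) and 7.81% of the cluster was covered. Windows of that length held as many in 13.2% of 59285 cases over all chromosomes and in 9.50% of 2726 on chromosome 11, and had as large a covered share in 4.07% and 2.90%. The density was 1.49 times that of both flanks (0.709 to 2.87), a CI that includes 1. The flanks themselves differed, with 20 intervals on the APOA5 side and 41 on the APOA1 side.

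In this cluster 6 intervals formed a tight group at chr11:116674963-116680194, where they covered 52.2% of 5.23 kb. The group held all 4 of the cluster's intervals of at least 400 bp. These were chr11:116679469-116680194 (726 bp), chr11:116678856-116679453 (598 bp), chr11:116676066-116676638 (573 bp) and chr11:116677562-116677965 (404 bp). The segment with this group was 22.6% covered, and the other 3 segments were 1.17% to 5.94% covered. Gaps of 12607 and 13997 bp followed, parted by the narrowest member, chr11:116692802-116692942 (141 bp). The median width was 246 bp (178 to 598 bp), against 215 bp (166 to 304 bp) in the flanks. Gene positions inside the cluster were not used, so APOA4, APOC3 and the start of APOA5 were not placed on these intervals. The interval at the lower-coordinate end, chr11:116660212-116660400 (189 bp), began 126 bp from the 3′ end of APOA5.

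The APOE-APOC1-APOC2 cluster held 4 narrow intervals in 43.8 kb, and its density could not be told apart from that of its flanks by counting. Density was 0.914 per 10 kb (0.249 to 2.34), against 0.95 in both flanks (ratio 0.962, 0.249 to 2.67), 1.07 in the 5 Mb around it and 0.880 on chromosome 19. At most as many were found in 43.1% of 65346 windows of that length over all chromosomes, and in 67.5% of 1275 windows on chromosome 19. At least as many were found in 69.4% and 47.0% of them, and at least the covered share of 1.56% in 71.3% and 52.1%. The intervals were chr19:45423536-45423689 (154 bp), chr19:45431476-45431624 (149 bp), chr19:45439848-45440085 (238 bp) and chr19:45448408-45448551 (144 bp). They were evenly spaced, with gaps of 7786 to 8322 bp. None of the 4 reached 400 bp (Wilson 95% upper limit 49.0%), while 5 of 38 in the flanks did. With 4 intervals, counting error leaves a density between 0.249 and 2.67 times that of the flanks.

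**Figure D4:**
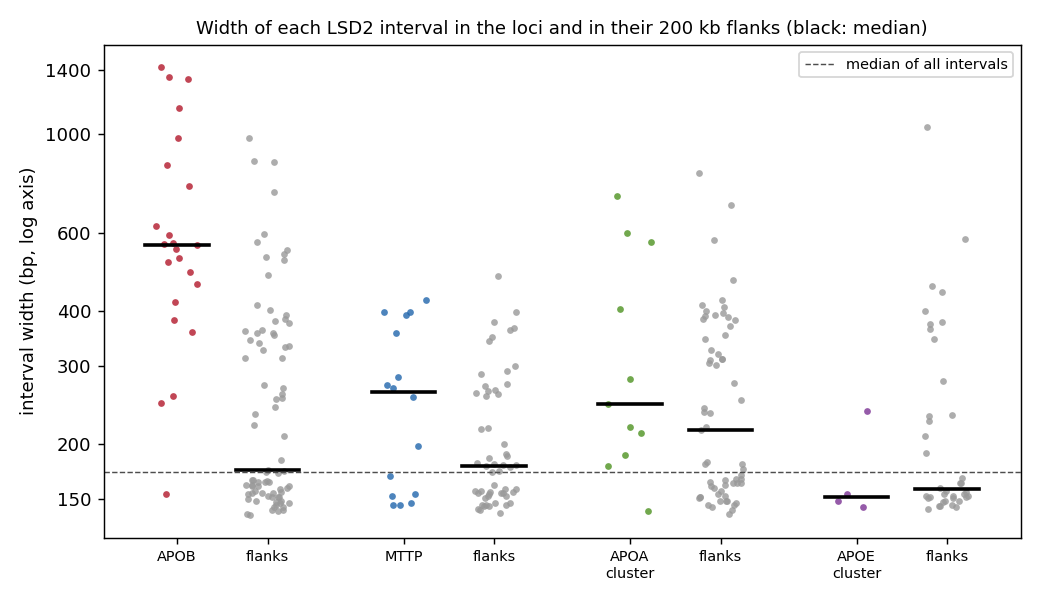
Width in bp (log axis) of each interval in the 4 loci (coloured) and in their 200 kb flanks (grey), with medians as black bars and the median of all intervals, 173 bp, dashed. In APOB 22 of 23 points lie at 200 bp or more, whereas the flanks of every locus have a dense band of points at about the narrowest widths.

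Set beside one another, APOB had a higher density than each of the other loci, and the other 3 were not told apart by counting. The CIs of the APOB ratios to MTTP and to the APOA cluster, which are too narrow, came close to 1. Over the 6 pairs, with no adjustment for their number, the ratio of APOB was 2.02 to MTTP (1.02 to 4.09), 2.37 to the APOA cluster (1.11 to 5.38) and 5.90 to the APOE cluster (2.02 to 23.5). The ratio of MTTP to the APOA cluster was 1.17 (0.511 to 2.79), that of MTTP to the APOE cluster was 2.92 (0.943 to 12.0), and that of the APOA cluster to the APOE cluster was 2.50 (0.739 to 10.7). APOB supplied 42.6% of the 54 members and 63.3% of the covered bases. Without it, the median width of the 31 remaining members was 238 bp, in place of 369.5 bp for all 54, and 5 of the 31 reached 400 bp.

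None of the 4 gene starts that lie at an end of a locus had an interval within 1 kb, while 24.7% of 2 kb windows over the list were touched by one. The downstream MTTP start is not among the 4. By the estimate given above, it would have an interval within 1 kb, so the result for MTTP depends on the start taken. Nearest to the APOB start (chr2:21266945) was chr2:21264926-21265476 (551 bp), 1.47 kb inside the gene, and the next interval upstream was 6.66 kb away. For APOA1 (start chr11:116708338) they were chr11:116706940-116707117 (178 bp), 1.22 kb inside, and chr11:116711098-116711789 (692 bp), 2.76 kb upstream. The upstream MTTP start (chr4:100485240) lay in a stretch of 13.1 kb without an interval, bounded by chr4:100479252-100479551 upstream and chr4:100492618-100493015 (398 bp) in the gene. The APOE start (chr19:45409039) lay in one of 22.1 kb, from chr19:45400897-45401477 (581 bp) upstream to chr19:45423536-45423689 inside the cluster. With 4 starts, 0 near an interval is no measure of how often LSD2 lies at starts, and a start without a called interval can hold signal below the authors' cutoff.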

How the data were processed

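LSD2 ChIP (1 library) and input (1 library) were grouped by source name. Per the submitters' processing notes, BWA and hg19 were used. Per the file headers, the authors trimmed reads, removed duplicates and called intervals with MACS (read and fragment length 120 bp, effective genome 2700 Mb, p-value cutoff 1e-05, enrichment factor 32, local biases detected). The header gives the 2 read sets different run dates, so ChIP and run cannot be told apart. The deposited values are interval starts and ends in bases, taken as BED positions and printed counted from 1. A cutoff of this kind calls more and wider intervals where more reads fall.

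The 414095 lines gave 370863 distinct intervals. Loci, flanks (200 kb), gaps, widths and covered bases were computed with Python 3.11.15, pandas 2.3.3 and SciPy 1.17.1, and the counting and ratio steps were tested on simulated data. Background windows were consecutive windows of each locus's length, without interval-free stretches over 500 kb. They include the locus itself. All 9 genes were named, with intervals named by position where they were the widest, narrowest, at least 400 bp wide (up to 6 per locus) or nearest a gene start. Those listed more than 1 time were to be named as well, but only some of them were. Bounds of close groups, intervals just outside a locus and the remaining APOE cluster intervals were added after their values were seen. So was the interval near the estimated downstream MTTP start. The members and lists were chosen with earlier results of these data known. The planned list of other lipoprotein genes was not run, since no hg19 annotation was used here. For the same reason exons, introns and the sequences of the intervals are not given.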

Additional observations from a re-analysis of the deposited data

How the results depend on the processing

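Counts, density ratios to the flanks and median widths of the 4 loci were recomputed with other settings, which gave 68 values. Of these, 58 stayed within 1.5 times the count or within the 95% confidence interval of the value (for the APOE cluster's median width, which has no such interval, within the range of its widths). Counting every line, counting any overlap, merging intervals up to 100 bp apart and other flanks moved none of them that far. Still, the confidence interval of the MTTP ratio reached below 1 against the lower-coordinate flank alone (1.67) and against flanks of 500 kb (1.73). The APOE cluster's median width could not move, since the settings used for it kept the same 4 intervals. Counting any overlap left every count as it was. A wide confidence interval also lets a ratio pass: that of the APOE cluster was 1.52 against its lower-coordinate flank and 0.703 against the higher-coordinate one. The 10 values that moved came from keeping wide intervals only. This lowers a count by construction, whereas a ratio can move either way because the flanks lose intervals too. With intervals of at least 200 bp, the APOB ratio was 5.43, the MTTP count 9 and the APOE cluster count 1. With those of at least 400 bp, the ratio was 13.0 for APOB (95% CI 6.02 to 28.8) and 6.68 for MTTP (0.0850 to 524, 1 interval in the gene). It was 4.14 for the APOA cluster (0.913 to 15.5, 4 intervals) and 0 for the APOE cluster (0 to 9.97, 0 intervals). Of these CIs, only that of APOB leaves out 1. No paired analysis was possible because the ChIP and the input were single libraries. Depth is unknown, so a stretch with no interval may hold LSD2 signal that fell short of the authors' cutoff.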

Other observations

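Intervals that the authors' file repeats lay side by side in MTTP and APOB, and at opposite ends of the APOA cluster. Of the 54 members, 11 (20.4%) were listed more than 1 time, against 10.1% of all intervals. In MTTP the first 10 intervals from the upstream gene start were listed 1 time each, and the remaining 6, from chr4:100516563 to the 3′ end, were listed 2 times each. None of the 55 intervals in the MTTP flanks was repeated. In APOB the 2 intervals nearest the 3′ end were listed 2 times and the other 21 were not, and none of the 80 in its flanks was repeated. In the APOA cluster the outermost interval at each end was listed 2 times and the 9 between them 1 time. In the APOE cluster the interval nearest the 3′ end of APOC2, chr19:45448408-45448551, was listed 3 times. Repeats were not particular to the loci: 10 of 61 intervals (16.4%) in the flanks of the APOA cluster and 15 of 38 (39.5%) in those of the APOE cluster were repeated, as were 13.0% to 29.6% of those in the 5 Mb around the 4 loci. Why lines are repeated was not tested.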
